A study of Mus musculus with 6 samples.

Results

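Actin filaments grow, branch, are cut and are bundled by a shared set of proteins, and 53 of the genes that encode it were followed here in mouse embryonic fibroblasts with and without Lasp1. The members were chosen by name, as genes of actin assembly, severing and crosslinking, and 47 of the 53 had a named probe among the 19057 genes tested. Actr2, Arpc3, Cyfip1, Diaph2, Fmnl3 and Ezr had none and were not analysed here. The fibroblasts, connective tissue cells grown out of embryos, were of strain C57Bl/6NCr and were either Lasp1+/+ (wild type, 3 arrays) or Lasp1-/- (knockout, 3 arrays), with no treatment named in the labels. Total RNA was hybridised to Illumina bead arrays, and the labels do not say how many embryos or cultures the arrays came from, so each p-value speaks only to the scatter among these arrays, and that scatter may be technical. The labels also do not name the deleted part of Lasp1, the age of the embryos or the passage of the cells. LASP1 is itself an actin-binding LIM and SH3 domain protein of focal adhesions and the cell edge, and its probe fell in the knockout, from 135295, 148208 and 148809 in wild type to 51904, 51019 and 49770 (limma adjusted p = 1.17e-05).

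In a moving fibroblast, actin monomers held by profilin and thymosin are added to filament ends by formins, or built into branched networks by the Arp2/3 complex once WASP and WAVE proteins switch it on. Capping proteins stop growth, cofilin and its relatives cut old filaments and return monomers, and crosslinkers such as filamin, alpha-actinin and fascin tie filaments into networks and bundles. ERM and MARCKS proteins link the filaments to the plasma membrane. The subgroups below follow these roles.

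Intensities are the deposited linear values, scaled so that the median probe of every array reads 1000. They still hold background light, which makes folds of dim genes too small. A member is called dim where both group means lie below 993, the median of all probe means. Vil1, Capza2 and Rdx were dim in this sense and are given no size of change, and the other 44 members were brighter, beside 65.9% of all genes tested. The cut is the level of a middling probe, so genes just above it, such as Baiap2 (means of 1189 and 1287), may also be close to background. A log2 difference is knockout minus wild type, from limma over all 19057 genes with Benjamini-Hochberg adjustment, and a gene passed where its adjusted p was under 0.05. Its error is the moderated SE, and intervals are 95% intervals from the same fit. Because the samples are bulk RNA, fewer cells of a type and less RNA per cell cannot be told apart.

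Most of the actin machinery did not pass the test, and 3 of 47 members did. Destrin (Dstn), an actin depolymerising factor, and fascin (Fscn1), which bundles filaments in filopodia, rose by about 1.3-fold. The formin Diaph3 fell by the same factor. These 3 are 6.38% of the members, beside 6.28% of all genes tested, so the share of members that passed is close to the share of all genes. Among genes that were not dim it was 3 of 44 beside 9.52%. All 3 calls were lost after normexp background correction, with a floor of 1000 and with trend and robust variance estimation, and those of Dstn and Diaph3 also with the mean of all probes. By direction, 2 of 47 rose beside 2.19% of all genes, and 1 of 47 fell beside 4.08%. The median log2 difference was -0.05 over the members, -0.02 over all genes and -0.05 over the 12564 genes that were not dim.

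**Figure D1:**
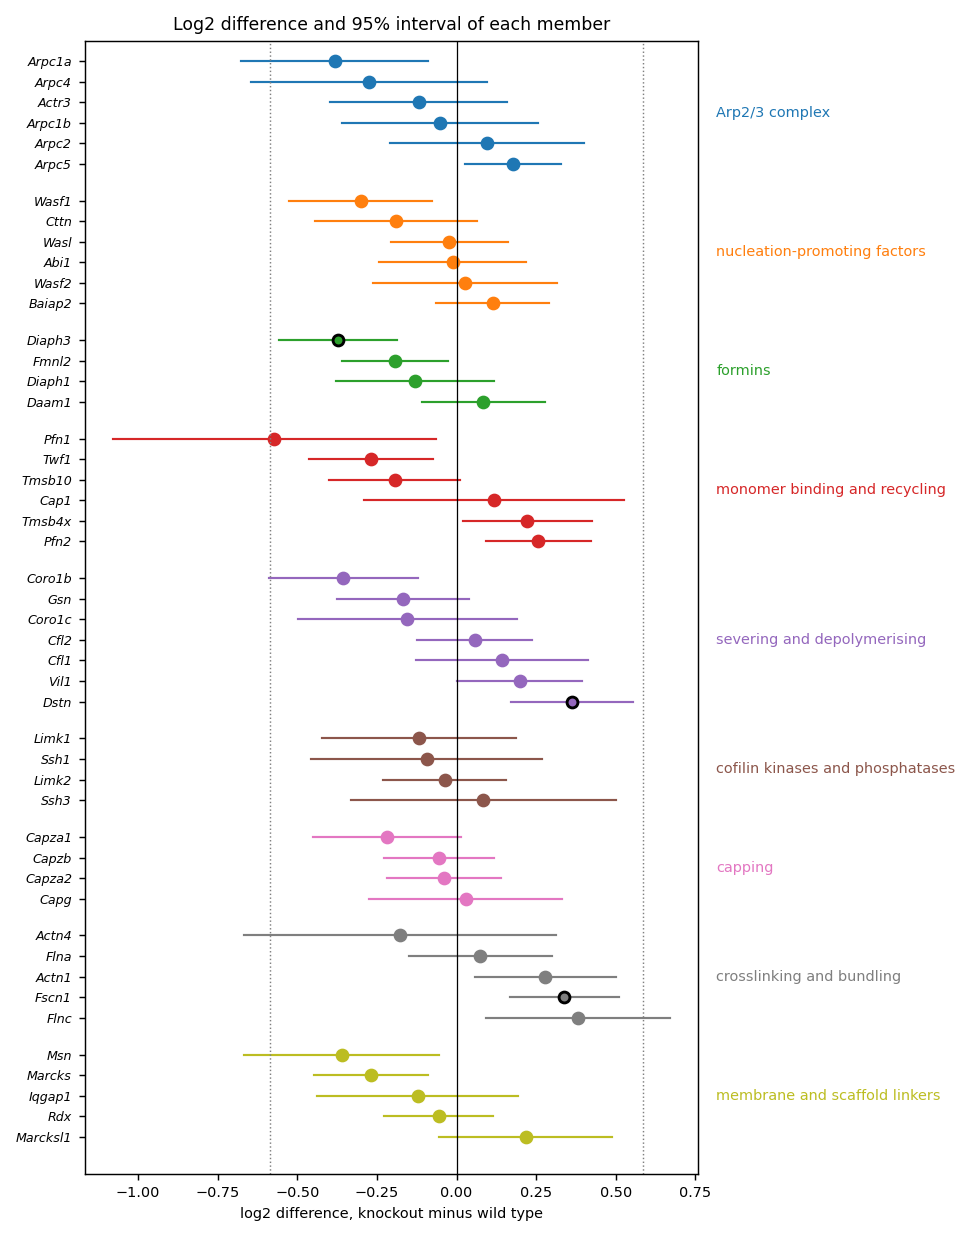
Each point is the log2 difference of 1 member, knockout minus wild type, with its 95% interval as a line, grouped and coloured by role. Points ringed in black (Diaph3, Dstn and Fscn1) passed the limma test, and the dotted lines mark a 1.5-fold change either way, which 40 of the 47 intervals stay within. The dim Vil1, Capza2 and Rdx are drawn at their fitted values.

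For 40 of the 47 members the 95% interval lay within 1.5-fold either way, beside 89.8% of all genes. Among those that were not dim it was 37 of 44 members (84.1%), beside 84.6% of genes. The 7 whose intervals crossed that bound were Arpc1a, Arpc4, Pfn1, Coro1b, Flnc, Actn4 and Msn. A 2-fold change lay outside the interval of 46 of 47 members, beside 98.1% of all genes. Among those that were not dim it was 43 of 44 members (97.7%), beside 97.2% of genes. The exception was Pfn1, whose interval ran from -1.08 to -0.07. The within-group SD of the log2 values ran from 0.0289 for the Arp2/3 subunit Arpc5 to 0.398 for the profilin Pfn1.

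Dstn (probe ILMN_2801683) read 37321, 31526 and 32951 on the wild-type arrays and 45164, 44320 and 41163 on the knockout arrays. All knockout arrays lay above all wild-type arrays. The means were 33933 ± 3019 and 43549 ± 2109 (SD, n = 3 each), a log2 difference of 0.36 ± 0.09 (SE; limma adjusted p = 0.0382). Its other probe was dim and gave 0.08 ± 0.07. The call was kept without wild type replicate 1 (0.43) and was lost without any other single array, at differences of 0.31 to 0.40 and limma adjusted p-values of 0.0762 to 0.169. Averaged over both probes, the dim one included, the difference was 0.22.

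Fscn1 (probe ILMN_2630605, its only probe) read 26477, 29703 and 28724 in wild type and 36567, 36461 and 34250 in the knockout. The lowest knockout array stood above the highest wild-type array. The means were 28301 ± 1654 and 35759 ± 1309 (SD, n = 3 each), and the log2 difference was 0.34 ± 0.08 (SE; limma adjusted p = 0.0300). The call was kept without wild type replicate 2 and lost without any other single array, at differences of 0.29 to 0.37 and limma adjusted p-values of 0.0614 to 0.117.

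Diaph3 (probe ILMN_2606436), a formin of the diaphanous group, read 2884, 3296 and 2907 in wild type and 2474, 2314 and 2227 in the knockout. Here every knockout array was below every wild-type array. The means were 3029 ± 232 and 2338 ± 125 (SD, n = 3 each), a log2 difference of -0.37 ± 0.08 (SE; limma adjusted p = 0.0293). A second, dim probe gave -0.02 ± 0.07, and the mean over both probes was -0.19. The call was kept when replicate 1 of either genotype was left out and lost when any of the other 4 arrays was, at differences of -0.31 to -0.40 and limma adjusted p-values of 0.0581 to 0.147. Of 14 measured cell cycle genes 9 also fell and none rose, beside 4.08% and 2.19% of all genes. Their summed intensity ran from 167444 to 174981 in wild type and from 119351 to 126001 in the knockout. The part of the cell cycle genes in the Diaph3 result was not tested.

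The sequences before the starts of the 3 members that passed the test are shown. Each is the 250 bases before the RefSeq start in GRCm38.p6, written 5′ to 3′ on the gene's strand, with motif matches in capitals. Dstn lies on the plus strand at chr2:143915081-143915330, Fscn1 on the plus strand at chr5:142960105-142960354 and Diaph3 on the minus strand at chr14:87141225-87141474.
Dstn: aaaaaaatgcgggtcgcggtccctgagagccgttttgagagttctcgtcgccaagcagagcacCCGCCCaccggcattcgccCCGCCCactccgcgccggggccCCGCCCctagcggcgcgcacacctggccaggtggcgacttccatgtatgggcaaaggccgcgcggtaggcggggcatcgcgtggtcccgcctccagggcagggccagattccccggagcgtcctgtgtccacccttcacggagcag
Fscn1: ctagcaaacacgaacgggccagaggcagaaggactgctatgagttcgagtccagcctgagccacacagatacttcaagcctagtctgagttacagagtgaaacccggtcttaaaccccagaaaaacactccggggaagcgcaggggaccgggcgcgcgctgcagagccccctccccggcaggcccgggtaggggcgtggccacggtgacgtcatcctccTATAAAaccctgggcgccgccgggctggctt
Diaph3: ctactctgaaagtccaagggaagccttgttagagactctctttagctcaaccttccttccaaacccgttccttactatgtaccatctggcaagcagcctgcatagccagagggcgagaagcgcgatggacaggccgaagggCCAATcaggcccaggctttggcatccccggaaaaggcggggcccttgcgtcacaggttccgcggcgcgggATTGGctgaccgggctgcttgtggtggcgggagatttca

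The motifs searched on both strands were the CArG box bound by SRF (searched under that name alone), the TATA box with the letters TATAAA, the CCAAT box, the GC box with the letters GGGCGG and the MCAT element with the letters CATTCC. No motif was masked where another overlapped it. Dstn held 3 GC boxes, all read on the opposite strand, with 140, 162 and 181 bases between the match and the start. Fscn1 held TATAAA with 25 bases between it and the start, and no GC box. Diaph3 held CCAAT on both strands, with 104 and 34 bases to the start. None of the 3 windows held a CArG box. No motif in this search was found in more than 1 of the 3 windows.

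Windows were found for 43 of the 47 members and for 15237 of all genes tested. A GC box stood in 31 of the 43 (72.1%) and in 49.3% of all genes, CCAAT in 18 (41.9%) against 39.2%, and CATTCC in 6 (14.0%) against 13.2%. TATAAA was found in 2 members (Baiap2 and Fscn1; 4.65%) against 12.8%, and the CArG box in 2 (Arpc4 and Vil1) against 1.51%. A match is a run of letters in this window and not a measured binding site.

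Before adjustment, 17 of 47 members had a limma p under 0.05, Dstn, Fscn1 and Diaph3 included, beside 18.6% of all genes. Of the 17 members, 8 were higher and 9 lower. Members were brighter than most genes, and among genes that were not dim the shares were 36.4% of members and 27.5% of genes. The groups did not overlap in 14 of 47 members, 7 in each direction, beside 21.3% of all genes and 27.6% of the genes that were not dim.

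**Figure D2:**
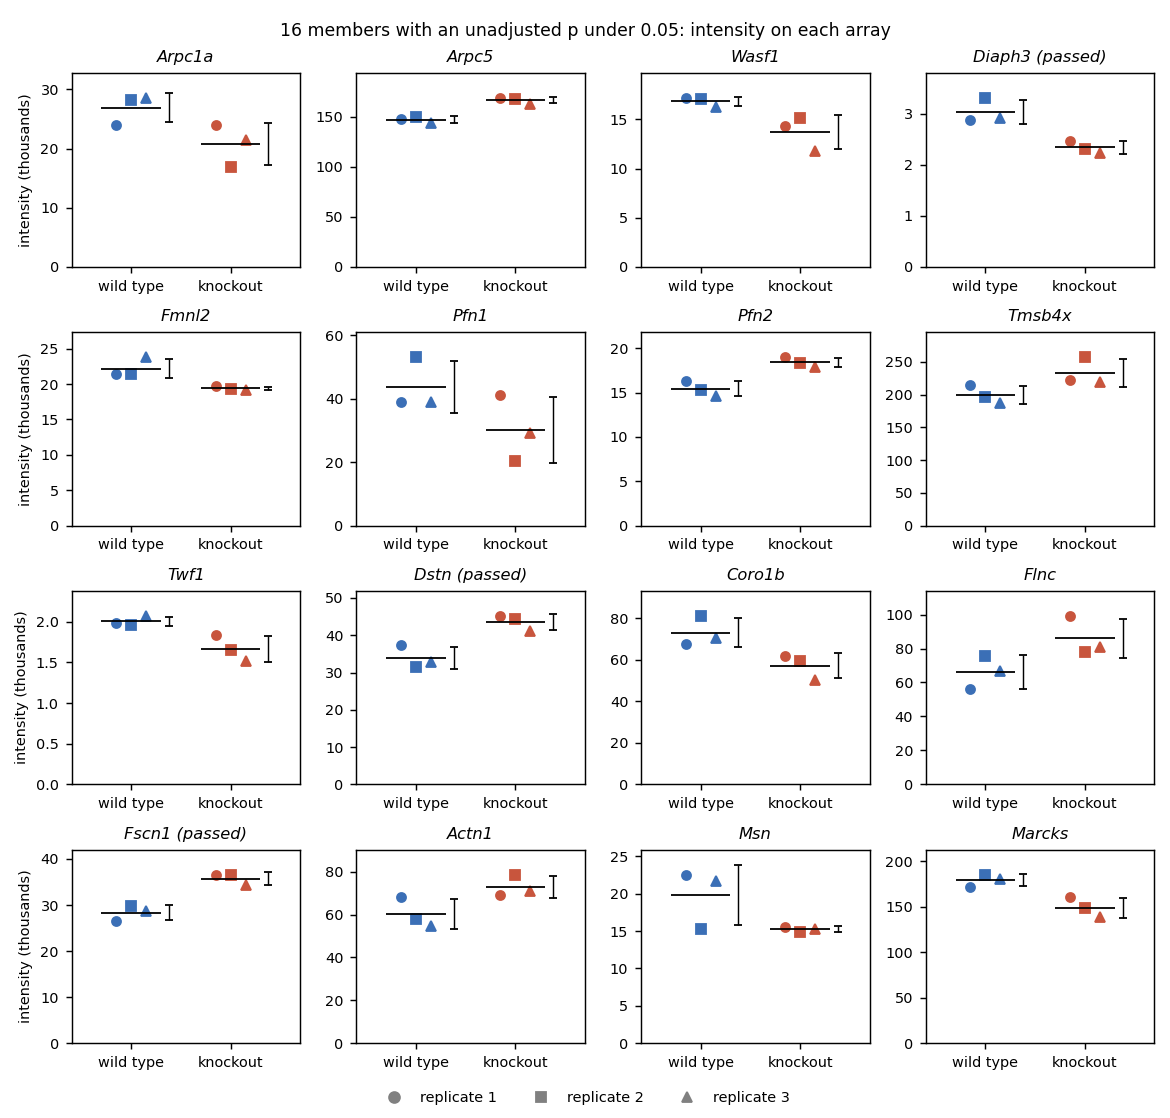
Intensity divided by 1000 on each of the 6 arrays for the 16 members that were not dim and had an unadjusted p under 0.05, with axes from 0. Horizontal lines are group means and the bars beside them SDs (n = 3). In 14 of the panels the wild-type and knockout points do not overlap, and in Pfn1 and Msn they do.

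The Arp2/3 complex, which branches new filaments off old ones, had 6 of its 8 listed subunits measured, and none passed. The log2 differences ran from -0.38 to 0.18 with a median of -0.09. Arpc1a (-0.38 ± 0.13) and Arpc5 (0.18 ± 0.07) were the ends of that range. Arpc5 read 148400, 150013 and 143742 in wild type and 168464, 168211 and 163267 in the knockout, with no overlap and the smallest spread of any member (limma adjusted p = 0.184). A second bright Arpc5 probe overlapped between groups and gave 0.03 ± 0.10. Arpc1a read 24025, 28204 and 28453 against 24023, 16887 and 21427, so its groups were separated only by the gap between wild type replicate 1 and knockout replicate 1 (limma adjusted p = 0.137). Its other bright probes gave -0.38 and -0.25. The remaining subunits Actr3, Arpc1b, Arpc2 and Arpc4 overlapped between groups, with differences of -0.27 to 0.10.

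Of the factors that switch the Arp2/3 complex on, 6 of 7 were measured and none passed. Wasf1, a WAVE protein, read 17132, 17106 and 16247 in wild type and 14297, 15149 and 11745 in the knockout. All knockout arrays were lower, by -0.30 ± 0.10 on the log2 scale (limma adjusted p = 0.129). Wasl, which encodes N-WASP and was the brightest of the subgroup, was level, with 25117, 28862 and 28782 against 26308, 28318 and 26720 and an interval of -0.21 to 0.16. Its sign turned to 0.07 after quantile normalization. Wasf2, the WAVE complex member Abi1, the membrane-bending Baiap2 and cortactin (Cttn), which steadies branches, overlapped between groups with differences of -0.19 to 0.11.

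Formins, which nucleate and lengthen unbranched filaments, were measured for 4 of 6 genes. Beside Diaph3, Fmnl2 was lower on every knockout array: 21438, 21360 and 23783 in wild type against 19682, 19239 and 19222. Its log2 difference was -0.19 ± 0.07 and did not pass (limma adjusted p = 0.188). Diaph1, another formin of the diaphanous group, and Daam1 of Wnt planar polarity signalling overlapped between groups (-0.13 ± 0.11 and 0.08 ± 0.09). The ratio of Diaph3 to Diaph1 differed by -0.24 between genotypes and its groups overlapped (exact two-sided permutation p = 0.2).

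Monomer binding and recycling proteins had 6 of 6 genes measured, none of which passed. Their differences went both ways, 3 up and 3 down. Profilins load actin monomers onto growing ends, and Pfn2 read 16333, 15265 and 14671 in wild type against 18990, 18324 and 17929 in the knockout. The groups did not overlap, and the difference of 0.26 ± 0.07 missed the threshold (limma adjusted p = 0.0806). A second bright Pfn2 probe gave 0.22 ± 0.09, and a probe close to background pointed the other way (means of 1192 and 1015, -0.24 ± 0.08). Pfn1 read 39055, 53132 and 39046 against 41158, 20548 and 29107 at its brightest probe. Wild type replicate 2 was high, knockout replicate 2 was low, and the groups overlapped (-0.57 ± 0.22, limma adjusted p = 0.203). Its other probe, also bright, read 26682, 28630 and 26307 against 27814, 25310 and 23953, a difference of -0.08 ± 0.08.

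The beta-thymosins hold monomers in reserve. Tmsb4x read 214858, 196272 and 187042 in wild type and 222462, 256873 and 219010 in the knockout, all higher (0.22 ± 0.09, limma adjusted p = 0.219). Tmsb10 read 194528, 208517 and 215878 against 180528, 199508 and 162200, with overlapping groups (-0.19 ± 0.09, limma adjusted p = 0.303). The 3 bright probes of Tmsb10 all pointed down, by -0.10 to -0.27. Twf1, or twinfilin, which binds monomers and filament ends, was lower on all knockout arrays (1986, 1956 and 2071 against 1838, 1652 and 1512; -0.27 ± 0.09, limma adjusted p = 0.116). Cap1, a cyclase-associated protein that works with cofilin, overlapped (0.12 ± 0.18).

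Among the 7 severing and depolymerising genes, Dstn was the member that passed, and its relatives Cfl1 and Cfl2 were closer to 0 (0.14 ± 0.12 and 0.06 ± 0.08). Cfl1 read 11244, 13708 and 12732 against 16445, 12295 and 13079, with knockout replicate 1 the highest. The ratio of Dstn to Cfl1 overlapped between genotypes (0.22 on the log2 scale, exact two-sided permutation p = 0.3), so an unequal response of the family was not shown. Coro1b, a coronin that helps take branched networks apart, was the brightest of the subgroup and read 67502, 81104 and 70736 in wild type against 62000, 59437 and 50234. All knockout arrays were lower, by -0.35 ± 0.10 (limma adjusted p = 0.0871), and a dimmer probe gave -0.26 ± 0.08. Its relative Coro1c overlapped (-0.15 ± 0.15), as did gelsolin (Gsn), which severs and caps in response to calcium (-0.17 ± 0.09).

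The kinases and phosphatases that turn cofilin off and on gave the smallest range of the subgroups. LIM kinases inactivate cofilin by phosphorylation and slingshot phosphatases reactivate it. Limk1, Limk2, Ssh1 and Ssh3 ran from -0.12 to 0.08 and all overlapped between groups. Limk2, the brightest, read 9547, 10914 and 9330 in wild type and 10292, 9349 and 9355 in the knockout. Ssh3 varied most within the groups, from 3201 to 5431 in wild type.

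Capping proteins, which block the fast-growing filament end, had no member that passed among 4. Capzb, the beta subunit of capping protein, was the steadiest with 55395, 55526 and 60792 against 56740, 51965 and 56561, and an interval of -0.23 to 0.12. Capza1, an alpha subunit, read 4579, 3773 and 4916 against 3829, 3591 and 3927 (-0.22 ± 0.10, limma adjusted p = 0.307). Capg, a gelsolin relative that caps without severing, gave 0.03 ± 0.13.

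Crosslinkers and bundlers had the highest median of the subgroups, which is a description with no test. Of 5 genes, 4 had a positive difference, 1 of which passed, and the median was 0.28, against -0.16 to 0.06 in the other 8 subgroups. A median of 5 genes is the value of the middle one, which was Actn1 here. The median stayed between 0.21 and 0.37 under the 15 alternative settings, which was also the range of Actn1 alone. Flnc, a filamin best known from muscle, read 55902, 75750 and 66560 in wild type and 99110, 77853 and 80719 in the knockout. Its groups did not overlap, the gap between wild type replicate 2 and knockout replicate 2 was narrow, and it did not pass (0.38 ± 0.13, limma adjusted p = 0.136).

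Actn1, an alpha-actinin of stress fibres and focal adhesions, was higher on every knockout array, narrowly for knockout replicate 1: 68159, 57879 and 54617 against 68905, 78535 and 71118 (0.28 ± 0.10, limma adjusted p = 0.152). Filamin A (Flna), which holds filaments at wide angles, overlapped (0.07 ± 0.10). Actn4, the other nonmuscle alpha-actinin, spread from 16490 on knockout replicate 2 to 29830 on wild type replicate 3 and overlapped (-0.18 ± 0.22). Flnc passed after quantile normalization, with array weights, after upper quartile scaling and without wild type replicate 2 (differences of 0.33 to 0.49), and Actn1 passed under array weights (0.36) or when replicate 1 of wild type was left out (0.37).

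Among 6 skeletal muscle markers, Acta1, the skeletal muscle actin, rose (1.52 on the log2 scale) and the other 5 did not pass. Over all genes tested 2.19% rose. The summed intensity of the 6 markers was 12051 to 13753 in wild type and 21554 to 22487 in the knockout. Most of that rise was Acta1 itself, with means of 4546 in wild type and 12873 in the knockout. The defining markers Myod1 and Ckm were dim. The part of these markers in the crosslinker values was not tested.

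Membrane and scaffold linkers had 5 of 6 genes measured, none of which passed. Marcks, a membrane protein that binds and gathers actin filaments, was the brightest and was lower on every knockout array: 172421, 185339 and 180978 against 160471, 148325 and 138737 (-0.27 ± 0.08, limma adjusted p = 0.0881). Its relative Marcksl1 overlapped and pointed up (0.22 ± 0.12). Iqgap1, a scaffold for Rac and Cdc42, overlapped at its brightest probe (-0.12 ± 0.14).

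Moesin (Msn), an ERM linker, was the member whose probes disagreed most. The brightest probe (ILMN_2694960) read 22526, 15275 and 21703 in wild type and 15585, 14808 and 15306 in the knockout. Its knockout arrays were close together, wild type replicate 2 fell among them, and the difference of -0.36 ± 0.14 did not pass (limma adjusted p = 0.183). A second probe (ILMN_1229193) read 4920, 8503 and 5853 against 15447, 10581 and 12450. There every knockout array was higher, by 1.02 ± 0.19 (limma adjusted p = 0.0191 over all probes). Where the probes lie on the transcripts of Msn was not analysed here, and the direction for this gene depends on the probe: the mean over its 3 probes was 0.26. Iqgap1 had a similar case, with 0.61 ± 0.19 at a dimmer probe that read 1628, 2815 and 1962 against 3908, 2701 and 3042. Its groups overlapped and it did not pass (limma adjusted p = 0.131 over all probes).

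**Figure D3:**
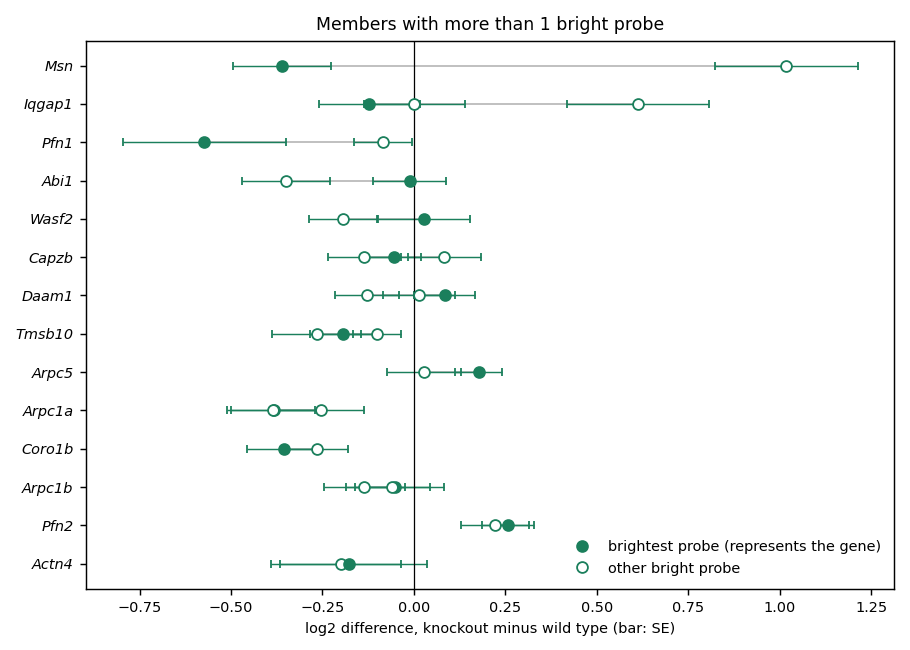
Log2 difference, knockout minus wild type, of every bright probe (a group mean above 2 times the median of all probe means) for the 14 members with more than 1, with SE bars. Filled points are the probes that represent the genes, and the probes of Msn are 1.38 apart, the widest gap shown, while those of Actn4 and Pfn2 lie almost on top of each other.

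Across the 14 members with more than 1 bright probe, the probes of 9 pointed the same way and those of 5 (Capzb, Daam1, Iqgap1, Msn and Wasf2) did not. The median gap between the highest and lowest probe of a gene was 0.19, and it exceeded 0.5 in Msn and Iqgap1. The differences reported for Arpc1a, Coro1b, Pfn2 and Tmsb10 were therefore seen at more than 1 bright probe, and those for Dstn, Fscn1 and Diaph3 at 1. For Arpc5 and Pfn1 the second bright probe gave a smaller difference (0.03 and -0.08).

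Related members were also set against each other within each array, for 15 pairs. The log2 ratio separated the genotypes in 4 of them, each with an exact two-sided permutation p of 0.1, the smallest that 3 arrays against 3 allow, and 0.333 after adjustment over the 15 pairs. Pfn2 was higher relative to Pfn1 by 0.83 at the brightest probes, with an SD of 0.28 over the wild-type and 0.48 over the knockout arrays. Tmsb10 was lower relative to Tmsb4x by -0.42, with shifts of -0.35, -0.41 and -0.48 on the knockout arrays and -0.19, 0.04 and 0.16 in wild type. Marcksl1 was higher relative to Marcks by 0.49, and Flnc relative to Flna by 0.31. In the other 11 pairs the ratios overlapped between genotypes.

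**Figure D4:**
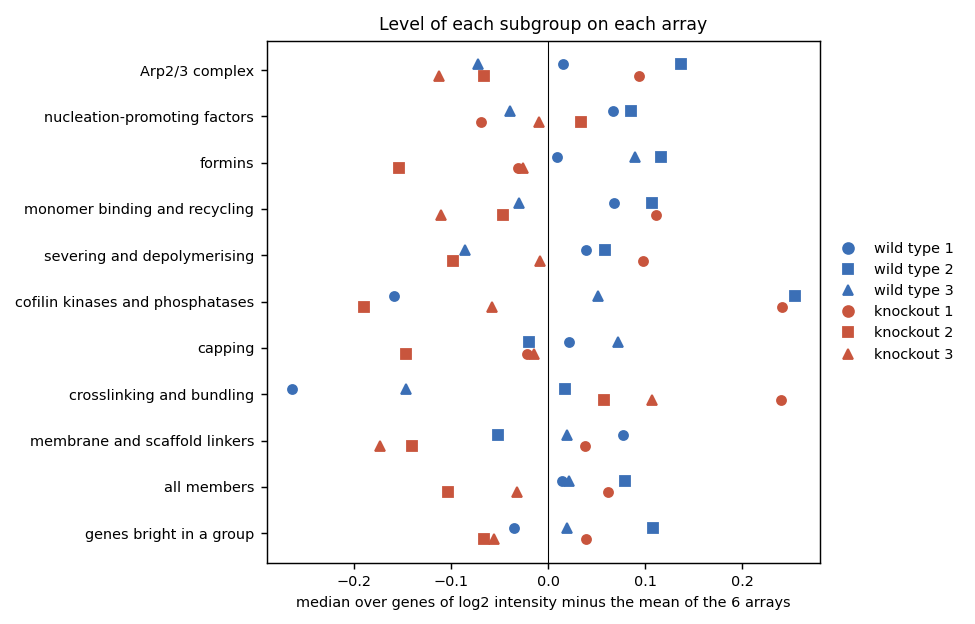
For each role, all members and all genes that were not dim, the median over genes of log2 intensity minus that gene's mean over the 6 arrays, 1 point per array. Crosslinkers have all 3 knockout arrays (0.06 to 0.24) above all 3 wild-type arrays (-0.26 to 0.02), and the cofilin kinases and phosphatases instead place wild type replicate 2 and knockout replicate 1 together at the right.

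The arrays themselves differed in level. The upper quartile of intensity was 2330 on wild type replicate 2 and 2283 on knockout replicate 1, and 2018 to 2112 on the other 4. These were also the arrays on which members were most often at their highest, 12 and 15 of 47, and least often at their lowest, 2 each. Knockout replicates 2 and 3 were the lowest for 12 members each. Arpc1b, Arpc4, Cfl1, Limk1, Ssh1, Ssh3, Capg and Flnc followed the order of the upper quartiles within both genotypes, 8 of 47 members beside 15.7% of all genes and 23.1% of the genes that were not dim. After scaling each array to its upper quartile, 7 members passed, beside 9.77% of all genes: Dstn, Fscn1 and Flnc higher and Arpc1a, Diaph3, Pfn1 and Coro1b lower. The part of these array levels in the other results was not tested.

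**Figure D5:**
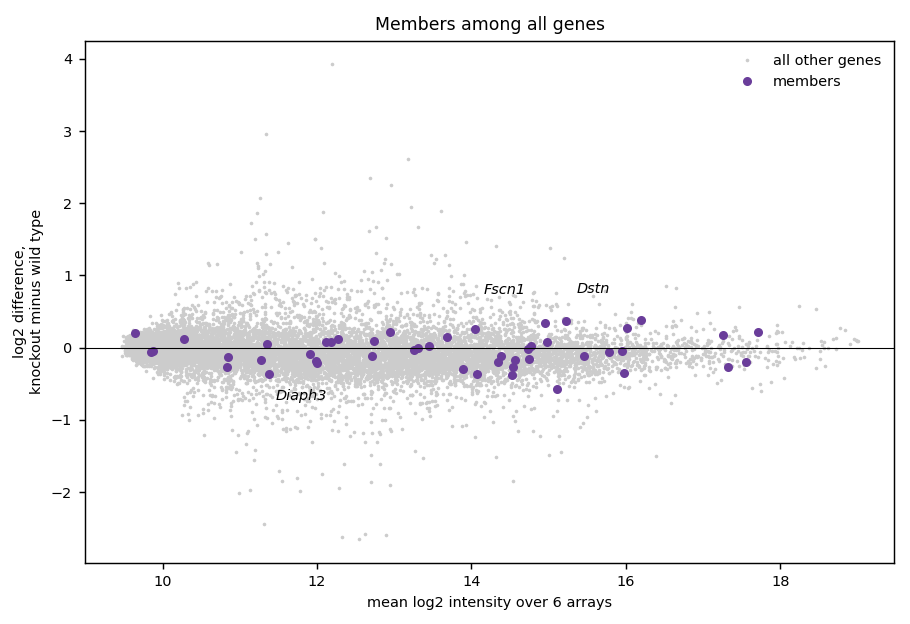
Log2 difference, knockout minus wild type, against mean log2 intensity for 19057 genes in grey, with the 47 members in purple. Members lie within -0.57 and 0.38 along the whole range of intensity, while other genes reach -2.65 and 3.92.

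Other genes of actin assembly, outside the members, were counted from a list. Of 64 listed, 61 were measured, 2 rose, 1 fell and 58 did not pass. The share that passed was 4.92%, beside 6.28% of all genes tested. Espn, or espin, a bundler of filaments in microvilli and stereocilia, read 1322, 1529 and 1388 in wild type and 2379, 2024 and 2137 in the knockout (0.62 ± 0.09, limma adjusted p = 0.00352). It lost its call averaged over its 4 probes (0.15) and with a floor of 1000. Baiap2l1, a membrane-bending relative of Baiap2, read 1399, 1594 and 1525 against 2142, 1946 and 1975 (0.43 ± 0.08, limma adjusted p = 0.0142), and was not called without wild type replicate 3 (0.44) or knockout replicate 3 (0.44), after normexp correction (0.67) or with a floor of 1000. Wipf1, the partner that stabilises WASP proteins, read 6797, 6563 and 5357 against 4869, 4502 and 4234 (-0.45 ± 0.10, limma adjusted p = 0.0331). Its call was lost without wild type replicate 1 or 2 or knockout replicate 2 or 3, at differences of -0.39 to -0.45, and also after normexp correction (-0.52) and with a floor of 1000. The median log2 difference over the 61 genes was -0.01.

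All 12 fibroblast markers were above the median of all probe means, beside 65.9% of all genes. Their summed intensity was 1145185 to 1303596 in wild type and 954335 to 1031658 in the knockout, and 4 of them fell. Over all genes tested, 4.08% fell and 2.19% rose. Epithelial markers summed to 23718 to 29060 and 11073 to 11887, with Epcam and Krt5 dim and 3 of 8 lower (Krt8, Krt14 and Krt19). Most of the fall in the sum was Krt14, with means of 15557 in wild type and 2565 in the knockout. Krt18 (0.18) and Cldn4 (0.31) were higher on every knockout array and did not pass. Macrophage and leukocyte markers summed to 11608 to 15284 and 16004 to 16824, with Ptprc, Fcgr1 and Itgam dim and Lyz2 higher. Endothelial markers summed to 8265 to 8775 and 9135 to 9598, with Cdh5 and Tie1 dim. Emcn rose, with means of 2367 and 3634, while 4 of the 6 markers had a negative difference. Among those 4, Tek was lower on every knockout array and did not pass (-0.29). Chondrocyte sums overlapped between genotypes while 3 of 6 markers passed in opposite directions: Col2a1 rose by 3.92 on the log2 scale, the largest rise of all genes tested, and Sox9 (-0.47) and Comp (-1.05) fell. Neural sums overlapped too, and Sox10 fell (-0.60). The part of these cell types in the members' values was not tested.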

How the data were processed

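RNA of 3 wild-type and 3 Lasp1 knockout fibroblast samples was measured on Illumina bead arrays after biotin labelling of cRNA, per the labels' protocols. The authors deposited linear probe intensities for 45281 probes, each array scaled to a median of 1000; for scanner, software and background handling, the sources used here give nothing. Probes were named from the platform annotation: 34885 had 1 symbol, 18 several and 10378 none. Where several probes carried 1 symbol, the one brightest on average (mean log2 over the 6 arrays) stood for the gene. The log2 of each value entered lmFit and eBayes (limma 3.58.1, R 4.3.3; genotype as the only term, 4 residual and 5.13 prior degrees of freedom) over 19057 genes, two-sided, with Benjamini-Hochberg adjustment at 0.05. Ratios of paired members were compared by exact permutation. Array data give no counts, and the number of arrays limits precision.

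On simulated data for this comparison with 19057 genes, the test called 17.0% of genes given a log2 change of 0.3, 75.0% at 0.5 and 98.5% at 1, and 9 of 18457 genes given none. The simulated noise was independent for each gene and array, so it lacked the level differences that the real arrays share across genes. Alternatives were quantile normalization, normexp background correction (offset 50), a floor of 1000, array weights and eBayes with trend and robust estimation. Others were the mean of all probes, a replicate block and leaving out each array. Another kept the 11985 genes whose mean over the 6 arrays was above 993. Upper quartile scaling was a further alternative, chosen after seeing the data. The rule for values by array took members that passed, members with an unadjusted p under 0.05 whose groups did not overlap, and the brightest of each subgroup; Pfn1, Tmsb10, Msn, Iqgap1, Cfl1 and Capza1 were added after their values were seen. The members, lists, pairs and alternatives were chosen with earlier results of these data known. Promoter sequences are from RefSeq, GRCm38.p6, matched by symbol for 43 of 47 members. Of genes without a named probe nothing is reported.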

Additional observations from a re-analysis of the deposited data

How the results depend on the processing

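Against 2 members higher and 1 lower, the counts were 5 and 2 after quantile normalization (11.0% of all genes called), 8 and 10 with array weights (17.1%), 3 and 4 after upper quartile scaling (9.77%) and 1 and 0 with the mean of all probes (5.01%). They were 0 and 0 after normexp correction (2.82%), with a floor of 1000 (1.87%) and with trend and robust estimation (6.46%). Leaving out single arrays gave 0 to 2 higher and 0 to 2 lower (2.43% to 8.36%). With the replicate block 0 members passed, nor did Espn, Baiap2l1 and Wipf1 (limma adjusted p-values of 0.0529, 0.101 and 0.0630), and 415 of all genes did (2.18%). The deviations of arrays of the same number correlated at -0.41, -0.34 and 0.22 over 11985 genes. Because the arrays differ in level, these correlations cannot tell whether the numbers pair the samples, and the labels do not say. No member passed when replicate 3 of wild type, or replicate 2 or 3 of the knockout, was left out. In these settings 2.68%, 3.24% and 2.43% of all genes passed, beside 6.28% with all arrays. Dstn, Fscn1 and Diaph3 kept their direction in all 15 alternatives, with limma adjusted p-values of 0.00501 to 0.271, 0.00163 to 0.283 and 0.00481 to 0.154.

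Median log2 differences moved beyond the spread between arrays as follows. After quantile normalization all members were at 0.017 and nucleation-promoting factors at 0.083; after normexp correction capping was at -0.11 and membrane linkers at -0.22. With the mean of all probes formins were at -0.095 and membrane linkers at 0.046. With only the genes whose mean over the 6 arrays was above 993, severing was at -0.049. Leaving out single arrays gave -0.097 to 0.030 for nucleation-promoting factors and -0.30 to -0.035 for membrane linkers. The sign turned after quantile normalization for Wasl (0.070), Limk2 (0.073) and Capzb (0.028), with array weights for Limk2 (0.0013) and with the mean of all probes for Msn (0.26). Leaving out single arrays gave -0.089 to 0.011 for Wasl and -0.083 to 0.033 for Limk2. Apart from what the alternatives change by construction, the cause was not tested. Vil1 has no value with a floor of 1000, since its arrays all lie below it. Dim members are limited by their signal over background.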
